A study of Mus musculus with 41 samples.

Results

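The 10 genes of cell adhesion described here were followed across every line and time of the study: the cadherins Cdh1, Cdh2, Cdh3, Cdh11 and Cdh22, the surface protein Epcam, the claudins Cldn4, Cldn6 and Cldn7, and the splicing factor Esrp1. They were taken by symbol from the expression table, which lists 55487 genes. All 10 passed the filter on low values (at least 1 CPM in at least 3 libraries), which left 16967 genes. The cells were of E14, an established mouse embryonic stem cell line, and their RNA was measured by QuantSeq, a method that sequences the 3′ ends of polyadenylated transcripts. One line was Esrrb WT and 2 lines, KO2 and KO3, were genetically depleted for Esrrb, an orphan nuclear receptor of the naive network. The WT genotype is thus 1 line, and nothing in the labels shows that the libraries of a group came from separate cultures.

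Cells of each line were kept in N2B27 medium with 2iL (3 µM CHIR99021, 1 µM PD0325901 and LIF) and were untreated, or were moved to N2B27 alone for 1 day and then to AloXR for 1, 3 or 5 days. AloXR is N2B27 with 3 ng/ml activin A, 2 µM XAV and 1.0 µM BMS439, and the labels give it as the medium for formative stem cells. The 2iL groups held 3 libraries per line and the AloXR groups 4, except KO3 at days 3 and 5 with 2 libraries each. Depth was 3424064 to 5736053 assigned reads per library, so that 0 reads still allowed up to 3 reads, or 0.523 to 0.876 CPM (assigned reads scaled to a library total of 1000000).

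Cadherins are transmembrane proteins that bind the same or related cadherins on the next cell and are tied to actin through catenins. Epcam is a homophilic adhesion protein of epithelia, claudins form the sealing strands of tight junctions, and Esrp1 promotes the epithelial forms of many spliced transcripts. In the mouse embryo, E-cadherin (Cdh1) joins the cells of the epiblast and of the early epithelia, whereas N-cadherin (Cdh2) is known from mesoderm and neural tissue.

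The promoter windows are shown for Epcam and Cldn7, whose RNA rose in AloXR, for Cldn4, which took another course, and for Cdh22, which rose in WT at day 3. From RefSeq's table (GRCm38.p6), 6 start sites of 5 of the 10 genes were used. The windows below are the 250 bases before a start, cut where an annotated exon begins. Capitals mark CACCTG, or CAGGTG on the other strand, an E-box that repressors of the Snail and Zeb families are known to bind.
Epcam, chr17:87635729-87635978, plus strand: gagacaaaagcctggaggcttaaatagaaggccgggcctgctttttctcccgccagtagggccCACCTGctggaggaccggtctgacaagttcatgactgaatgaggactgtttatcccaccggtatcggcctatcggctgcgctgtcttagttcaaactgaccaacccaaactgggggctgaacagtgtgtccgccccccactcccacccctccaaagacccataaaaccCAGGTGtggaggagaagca
Cldn4, chr5:134946935-134947184, minus strand: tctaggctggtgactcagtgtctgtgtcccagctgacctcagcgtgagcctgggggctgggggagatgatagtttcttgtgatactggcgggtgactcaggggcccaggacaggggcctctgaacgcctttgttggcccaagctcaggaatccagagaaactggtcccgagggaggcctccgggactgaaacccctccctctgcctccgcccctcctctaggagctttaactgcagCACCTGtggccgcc
Cldn7, chr11:69964529-69964778, plus strand: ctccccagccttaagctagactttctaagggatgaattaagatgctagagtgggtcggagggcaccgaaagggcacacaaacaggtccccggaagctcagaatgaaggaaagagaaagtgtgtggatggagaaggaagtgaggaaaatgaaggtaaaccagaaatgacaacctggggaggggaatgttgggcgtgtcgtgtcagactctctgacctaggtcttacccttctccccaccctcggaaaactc
Cdh22, chr2:165234854-165234987, minus strand: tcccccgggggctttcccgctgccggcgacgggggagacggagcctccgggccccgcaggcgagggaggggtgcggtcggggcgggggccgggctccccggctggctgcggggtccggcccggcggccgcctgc

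Over the full 250 bases, the E-box was found 2 times before the start of Epcam, 1 time before that of Cldn4 and 1 time before that of Cldn6 (in bases that another transcript of Cldn6 uses as exon, not shown). The second Cldn7 start, whose window lies wholly in an annotated exon and is not shown, had 2 matches. The E-box was absent from the windows of Cdh22 and of the first Cldn7 start, and 17.2% of all 32851 windows of that length held it. Neither AAGGTCA, part of the site that Esrrb is known to bind, nor AACCGGTT, the site of Grainyhead factors, was found in any of the 6 windows. They stood in 4.08% and 0.116% of all windows, searched on both strands. No window of Cdh1, Cdh2, Cdh3, Cdh11 or Esrp1 was among the 6, so nothing is said of these genes. The Cdh22 window was 77.6% G and C, against a median of 52.4% over all windows. These matches describe letters only and say nothing of binding.

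Cell identity was checked first. Markers of embryonic stem cells, 10 with Esrrb among them, were summed in each library. In 2iL this gave 2833 to 2971 CPM in WT, 2100 to 2396 in KO2 and 1914 to 2632 in KO3. The sum of 8 formative epiblast markers went from 135 to 241 CPM in 2iL to 1977 to 4394 CPM in AloXR. At day 1 it was 3890 to 4394 CPM in WT, 2647 to 3034 in KO2 and 2140 to 2372 in KO3. At day 5 KO3, at 2578 to 2631 CPM, lay above the 1977 to 2333 CPM of WT. The lines were thus not matched in these sums, and the members of a sum did not all move alike. At day 5 Pou3f1 read 514 to 524 CPM in KO3 and 156 to 180 CPM in WT. Otx2 went the other way, at 209 to 211 CPM in KO3 and 362.5 to 427.5 CPM in WT. In 2iL Sox2 read 287 to 326 CPM in KO2 and 528 to 716 CPM in WT. Tdgf1 read 734 to 1003 CPM in KO2 and 512 to 559 CPM in WT. Esrrb itself read 309 to 434 CPM in WT 2iL, 52.0 to 56.7 CPM in KO2 and 103 to 166 CPM in KO3. At AloXR day 1 it read 12.2 to 17.8 CPM in WT and 26.1 to 41.4 CPM in the libraries labelled KO3. Tags outside the deleted part, whose position is not given in the sources used here, would not show the loss, so these levels do not check the labels. In these bulk samples, fewer cells of a type and less RNA per cell cannot be told apart. The libraries numbered 3 in 2iL had the lowest Epcam and Cldn4 of their group in each line. Over all genes, library 3 was the one farthest from the others in WT and KO3, while in KO2 it was nearer to library 2 than library 1 was. Calls against 2iL that changed without these libraries are given both ways.

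**Figure D1:**
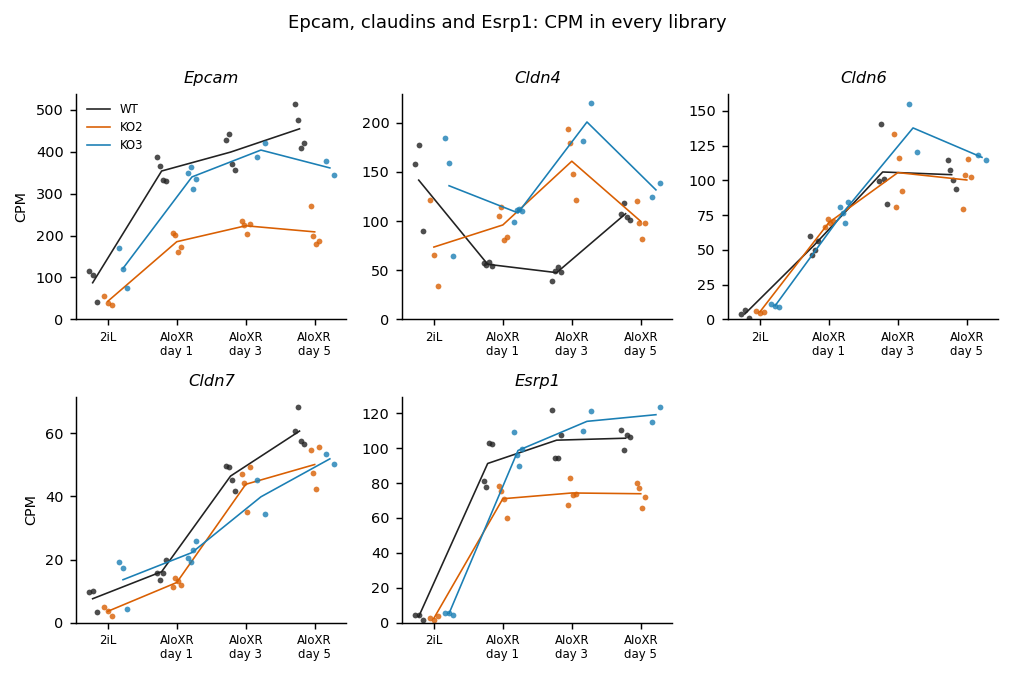
CPM of Epcam, Cldn4, Cldn6, Cldn7 and Esrp1 (vertical axes) in 2iL and at 3 AloXR times (horizontal axes), with 1 point per library and lines through the group means of WT, KO2 and KO3. Epcam, Cldn6, Cldn7 and Esrp1 are higher in AloXR than in 2iL in all 3 lines, and at day 3 Cldn4 is between 38.8 and 53.4 CPM in WT and between 122 and 220 CPM in the depleted lines.

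In WT cells, 7 of the 10 genes changed from 2iL to AloXR day 1, 9 at day 3 and 7 at day 5. A gene was called changed at an adjusted p under 0.05 and at least 1.5-fold (0.58 on the log2 scale). The shares called among all 16967 genes were 36.4%, 41.7% and 39.4%. The members' median log2 change was 0.96, 2.09 and 2.47 at the 3 times, against 0.03, 0.03 and 0.09 over all genes. Because Cdh11 and Cdh22 entered the test only through the libraries where they were read, these counts and medians describe the genes and test nothing.

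Esrp1 (chromosome 4, 11331933 to 11386783, minus strand) rose strongly in WT. It read 4.55, 4.16 and 1.5 CPM in 2iL and 81.4, 77.8, 103 and 103 CPM at day 1. The groups did not overlap, and the log2 difference was 4.46 ± 0.18 (SE, adjusted p = 7.43e-25). By day 5 WT held 98.7 to 110 CPM, a log2 difference of 4.68 ± 0.18 from 2iL. The same rise was seen in the depleted lines, with 4.38 ± 0.14 at day 5 (adjusted p = 2.42e-29). In 2iL KO2 was not called against WT (-0.32 ± 0.19), and was called without the third libraries (-0.92, adjusted p = 4.35e-05). At day 5 KO2 held 65.9 to 79.9 CPM, where KO3 held 115 and 123 CPM. That difference between the depleted lines was 0.69 ± 0.20 (adjusted p = 0.0154), and leaving out either KO3 library ended the call. At day 5 all 4 KO2 libraries lay below WT (-0.51 ± 0.17, adjusted p = 0.0193), under 1.5-fold. There the 44 neighbouring genes with at least 10 CPM had a median of -0.30 in KO2 against WT. With that median subtracted, Esrp1 differed by -0.22 (adjusted p = 0.376). In KO3 against KO2 the neighbours' median was 0.09. Gm26663, on the opposite strand over Esrp1, has no row in the table used here.

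Cldn6, a claudin of early embryonic epithelia (chromosome 17, 23679249 to 23682446), followed the same course. WT read 3.87, 6.51 and 1.29 CPM in 2iL, 46.4 to 59.9 CPM at day 1 and 83.2 to 140 CPM at day 3. The rise was 3.62 ± 0.21 on the log2 scale at day 1 and 4.59 ± 0.21 at day 3 (adjusted p = 4.75e-18 and 7.76e-22), and the step from day 1 to day 3 was itself called (0.97 ± 0.19, adjusted p = 1.46e-04). The depleted lines gained 3.85 ± 0.16 by day 3. In 2iL KO3 held 8.72 to 10.9 CPM, above every WT library, while KO2, at 4.87 to 5.84 CPM, lay inside the WT range. The difference of both lines from WT was 0.93 ± 0.19 (adjusted p = 3.25e-04), and that of KO2 alone was not called (0.56 ± 0.22, adjusted p = 0.0661). Without the third 2iL library of each line that difference was 0.49 (adjusted p = 0.0296) and no longer reached 1.5-fold. The call also ended without WT library 3 alone.

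Cldn7, a claudin of many simple epithelia (chromosome 11, 69964779 to 69967885), rose in steps. WT read 9.56, 9.89 and 3.22 CPM in 2iL, 13.5 to 19.8 CPM at day 1, 41.6 to 49.7 CPM at day 3 and 56.5 to 68.4 CPM at day 5. The log2 difference from 2iL was 1.11 ± 0.29, 2.59 ± 0.29 and 2.97 ± 0.29 at the 3 times, and without WT 2iL library 3 the day 1 call was lost. Against WT in 2iL, KO3 was not called (0.66 ± 0.31), and was called without the third libraries (0.85, adjusted p = 8.03e-04). KO2 and KO3 ended at 42.5 to 55.6 CPM and at 53.6 and 50.3 CPM. At day 5 all 6 depleted libraries lay below all 4 WT libraries, but the difference of -0.25 ± 0.25 was not called (adjusted p = 0.484).

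Epcam (chromosome 17, 87635979 to 87651129) read 116, 106 and 40.3 CPM in WT 2iL and 330 to 389 CPM at day 1, a log2 difference of 2.14 ± 0.23 (adjusted p = 3.07e-09). It reached 409 to 515 CPM at day 5, which was 2.5 ± 0.23 above 2iL. The depleted lines rose by 1.82 ± 0.16, 2.09 ± 0.18 and 1.95 ± 0.18 at days 1, 3 and 5. KO2 held 34.5 to 55.8 CPM in 2iL, overlapping WT in 1 library, and lay below every WT library later, at 162 to 207 CPM at day 1, 204 to 235 CPM at day 3 and 181 to 270 CPM at day 5. KO3 held 312 to 363 CPM at day 1, overlapping WT, and 345 and 378 CPM at day 5, below WT.

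Cldn4 (chromosome 5, 134945119 to 134946934, minus strand), a claudin of epithelia such as trophectoderm, fell in WT when the others rose. It read 158, 177 and 90.1 CPM in 2iL, 56.9, 55.2, 58.0 and 54.1 CPM at day 1, and 38.8, 49.6, 53.4 and 48.5 CPM at day 3. The WT log2 difference from 2iL was -1.27 ± 0.29 at day 1 and -1.51 ± 0.29 at day 3 (adjusted p = 5.52e-04 and 5.34e-05). From day 3 to day 5 it rose again, to 101 to 118 CPM (1.17 ± 0.27, adjusted p = 0.00196). At day 5 it was not called against 2iL (-0.34 ± 0.29), and was called without the third 2iL libraries (-0.64, adjusted p = 0.0017).

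**Figure D2:**
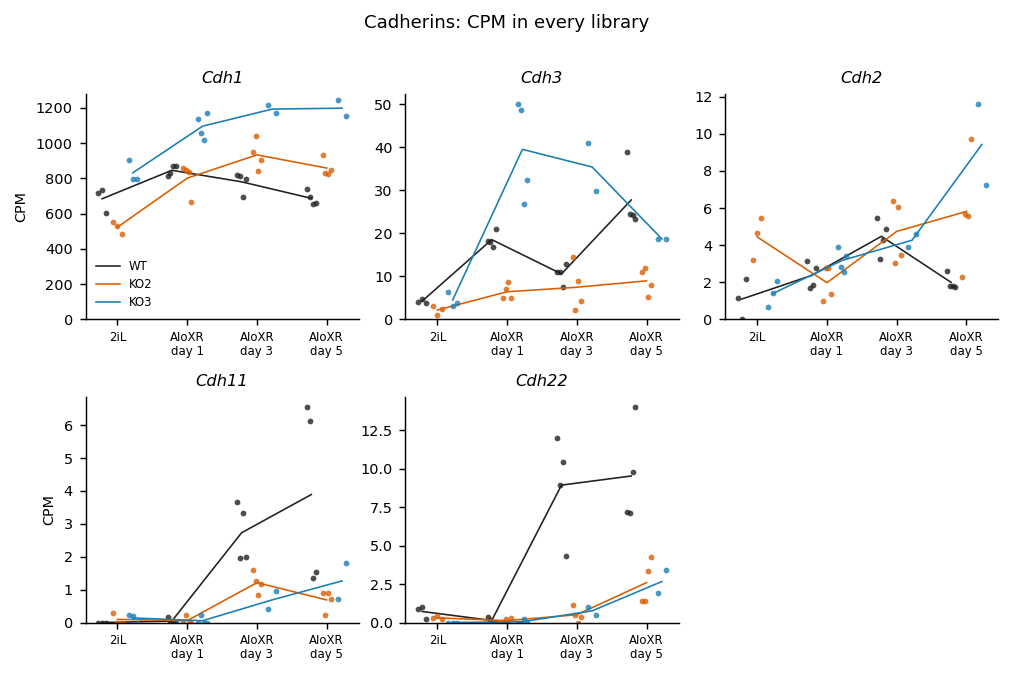
CPM of the 5 cadherins (vertical axes, each from 0) in 2iL and at 3 AloXR times (horizontal axes), 1 point per library and lines through the group means of WT, KO2 and KO3. In WT, Cdh11 and Cdh22 stay at 1.04 CPM or less up to day 1 and reach 1.36 to 6.54 and 4.34 to 14.0 CPM at days 3 and 5, above most depleted libraries.

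Among the cadherins, Cdh1 (E-cadherin, chromosome 8, 106603351 to 106670246) stayed within 1.5-fold of its 2iL level in WT. It read 719, 732 and 602 CPM in 2iL, 811 to 872 CPM at day 1, 695 to 821 CPM at day 3 and 657 to 739 CPM at day 5, and none of these changes from 2iL was called. At day 1 all 4 WT libraries lay above those of 2iL (0.31 ± 0.09, adjusted p = 0.00483), under 1.5-fold. In the depleted lines it rose by 0.68 ± 0.07 at day 3 and 0.62 ± 0.07 at day 5 (adjusted p = 3.99e-11 and 3.59e-10). KO2 went from 486 to 554 CPM in 2iL to 840 to 1039 CPM at day 3, and KO3 from 795 to 902 CPM to 1170 and 1217 CPM. The day 5 rise fell below 1.5-fold with TMM and with quantile normalization, by the edgeR test, without the third 2iL libraries (0.58), and with the median of neighbouring genes subtracted (0.35). The day 3 call was lost with quantile normalization and with the neighbours' median subtracted (0.49). In KO3 alone neither rise was called.

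Cdh3 (P-cadherin, chromosome 8, 106510891 to 106557297) rose in WT from 3.86 to 4.69 CPM in 2iL to 16.9 to 21.1 CPM at day 1 (1.90 ± 0.33 on the log2 scale, adjusted p = 6.22e-06). It stood at 7.59 to 12.8 CPM at day 3 and then rose to 38.8, 24.6, 24.3 and 23.4 CPM at day 5 (1.30 ± 0.30 against day 3, adjusted p = 0.00158). In the depleted lines the rise from 2iL was 2.07 ± 0.23, 2.00 ± 0.25 and 1.77 ± 0.25 at the 3 times.

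Cdh22, a type II cadherin (chromosome 2, 165111507 to 165234853, minus strand), appeared in WT between day 1 and day 3. It read 0.91, 1.04 and 0.21 CPM in 2iL and 0 to 0.35 CPM at day 1, at or under the limit of 3 reads in most libraries, and 11.97, 8.95, 10.4 and 4.34 CPM at day 3. The step was 3.07 ± 0.27 on the log2(CPM + 1) scale (adjusted p = 1.04e-12), a scale that understates the change of such low genes. Cdh22 passed the filter through its libraries at days 3 and 5. Its p-values, here and below, therefore describe the gene and are no separate support. At day 5 WT held 7.13 to 14.0 CPM. The WT difference between day 1 and 2iL was not called (-0.58 ± 0.29, adjusted p = 0.101), and was called without the third 2iL library (-0.81, adjusted p = 0.0375). The antisense gene Gm14397 had no reads.

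Cdh11 (chromosome 8, 102632095 to 102785642, minus strand), a type II cadherin of mesenchyme, had 0 reads in all 3 WT 2iL libraries and in 3 of 4 WT libraries at day 1. It read 3.65, 1.96, 3.32 and 1.99 CPM at day 3 and 6.54, 6.14, 1.36 and 1.53 CPM at day 5. The step from day 1 to day 3 was 1.81 ± 0.26 (adjusted p = 3.17e-07). Cdh11 too passed the filter through its libraries at days 3 and 5, and the same limit holds for its p-values. Genes overlapping it on the same strand had at most 0.24 CPM in any library.

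Cdh2 (N-cadherin) stayed low in every library, at 11.6 CPM or less. WT rose from 0 to 2.15 CPM in 2iL to 3.27 to 5.48 CPM at day 3 (1.52 ± 0.32, adjusted p = 9.95e-05) and fell back to 1.75 to 2.62 CPM at day 5 (-0.87 ± 0.30 against day 3, adjusted p = 0.0334). The fall was lost without day 3 library 1, 3 or 4, without day 5 library 2, 3 or 4, and at a pseudocount of 5 CPM. At day 5 Cdh2 was not called against 2iL in WT (0.65 ± 0.32, adjusted p = 0.0921), and was called without the third 2iL library (1.02, adjusted p = 0.0113). The day 1 rise in WT (0.81 ± 0.32, adjusted p = 0.0363) was lost without day 1 library 1 or 4 or 2iL library 2, and in edgeR (adjusted p = 0.108).

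Over the WT steps, 4 members changed from day 1 to day 3 (18.7% of all genes were called) and 3 from day 3 to day 5 (13.9%). In the depleted lines, 5 members changed at day 1, 9 at day 3 and 9 at day 5 against 2iL, beside 32.3%, 38.3% and 39.3% of all genes. Cldn4 rose there at day 3 (0.98 ± 0.23, adjusted p = 4.27e-04), and without the third 2iL libraries the value was 0.52 and under 1.5-fold.

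The depleted lines were then compared with WT at each time, calling a gene only where both lines moved in 1 direction. In 2iL 2 members were called, Cdh2 and Cldn6, both higher (15.7% of all genes were called), and at day 1 only Cldn4, higher (11.8%). At day 3 Cldn4 was higher and Cdh11 and Cdh22 lower (17.3%). At day 5 Cdh2 was higher and Cdh3, Cdh11, Cdh22 and Epcam were lower (20.6%). The counts of 2 and 1 of 10 in 2iL and at day 1 lie near the background. The counts of 3 and 5 at days 3 and 5 are above it, over 10 genes chosen with earlier results of these data known. They describe the genes and test nothing. At day 5 Cdh3 and Epcam were not called in KO3 alone (-0.52 and -0.33).

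**Figure D3:**
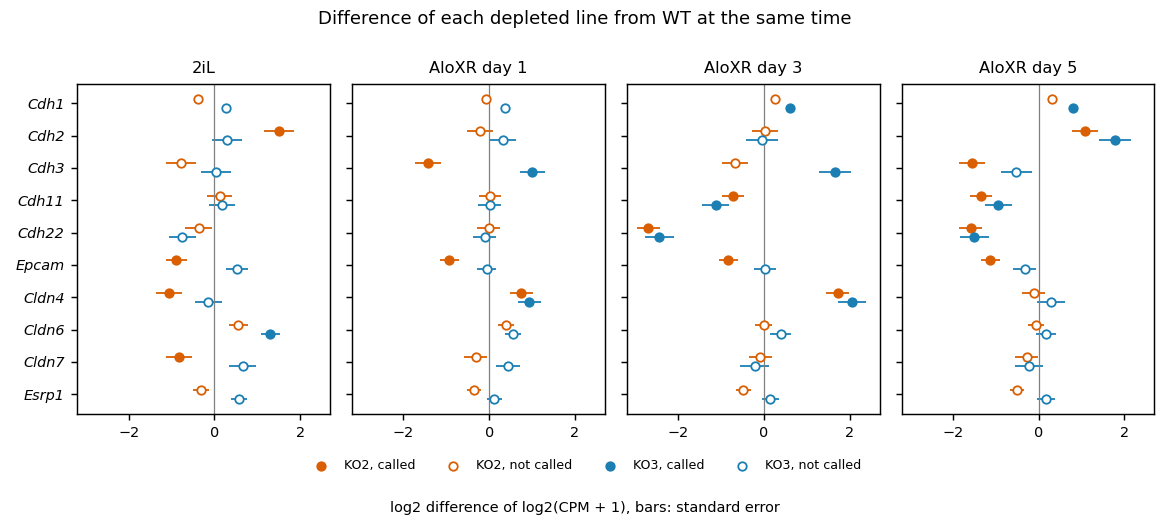
Log2 difference from WT on the log2(CPM + 1) scale (horizontal axis) of each gene (vertical axis) in KO2 and KO3 at 4 times, with standard errors and filled points for called differences. At day 3 Cldn4 lies at 1.72 and 2.06 and Cdh22 at -2.70 and -2.44 in KO2 and KO3, while Cdh3 at days 1 and 3 lies on opposite sides in KO2 and KO3.

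Cldn4 showed the largest rise over WT. At day 3 KO2 read 194, 180, 148 and 122 CPM and KO3 181 and 220 CPM, against 38.8 to 53.4 CPM in WT. The groups did not overlap, and the log2 difference was 1.89 ± 0.25 (adjusted p = 7.52e-07). At day 1 all 8 depleted libraries, at 80.4 to 115 CPM, lay above the 54.1 to 58.0 CPM of WT (0.84 ± 0.23, adjusted p = 0.00854). At day 5 the difference was 0.09 ± 0.25 and was not called. The change from 2iL differed between the genotypes by 1.44 ± 0.35 at day 1 and 2.49 ± 0.37 at day 3 (adjusted p = 0.00638 and 7.76e-06). Part of these values lies in 2iL, where Cldn4 was lower in KO2 than in WT (-1.06 ± 0.31, adjusted p = 0.0118). The day 1 value was not called for KO3 alone or with only the compared groups fitted. Day 1 and day 3 thus had the lowest Cldn4 of the WT course, while both depleted lines stood well above it.

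Markers of trophoblast were also higher in the depleted lines at days 1 and 3. At day 3, 10 of the 11 tested trophoblast markers were higher in the depleted lines and none lower (17.3% of all genes were called). Their summed level was 153 to 183 CPM in WT, 464 to 755 CPM in KO2 and 622 to 681 CPM in KO3. Tfap2c, a factor of trophoblast and germ cells, averaged 0.998 CPM in WT, 18.5 CPM in KO2 and 45.5 CPM in KO3 (3.86 ± 0.35), and the keratin Krt19 averaged 7.34, 46.1 and 76.6 CPM (2.87 ± 0.20). In 2iL the trophoblast sum was 175 to 223 CPM in KO2 against 124 to 161 CPM in WT, and Cldn4 was lower in KO2. In WT the sum was 68.3 to 84.4 CPM at day 1 and 153 to 183 CPM at day 3. Cldn4 in WT was not called between these days (-0.24 ± 0.27). At day 5 the trophoblast sum was 328 to 358 CPM in WT, 301 to 363 CPM in KO2 and 574 to 578 CPM in KO3. Primitive endoderm markers were also higher at day 3, 8 of 11 tested, beside 17.3% of all genes called. Their sums were 144 to 164, 235 to 281 and 565 to 603 CPM. No marker of either list was at 0 in all 41 libraries, and Elf5 of the trophoblast list stayed under 1 CPM in all libraries. The part of these markers in the Cldn4 result was not tested.

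Cdh22 showed the largest fall. At day 3 KO2 read 1.14, 0.50, 0 and 0.39 CPM and KO3 1.03 and 0.49 CPM, against 4.34 to 11.97 CPM in WT, with no overlap (-2.57 ± 0.25, adjusted p = 4.76e-11). At day 5 KO2 held 1.37 to 4.25 CPM and KO3 1.93 and 3.4 CPM, still below the 7.13 to 14.0 CPM of WT (-1.55 ± 0.25, adjusted p = 5.10e-06). Counted by reads, WT libraries held 24 to 59 reads of Cdh22 at day 3 and depleted libraries 0 to 5. The change from 2iL differed from that of WT by -2.01 ± 0.37 at day 3 (adjusted p = 6.99e-05), which edgeR on the recovered reads did not call (adjusted p = 0.847), with KO3 at 0 in all 3 of its 2iL libraries.

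Cdh11 was lower too, at 0.83 to 1.60 CPM in KO2 and 0.41 and 0.97 CPM in KO3 at day 3, all below WT (-0.93 ± 0.24, adjusted p = 0.00313). At day 5 KO2 held 0.24 to 0.91 CPM and KO3 0.72 and 1.81 CPM, the last inside the WT range of 1.36 to 6.54 CPM (-1.15 ± 0.24, adjusted p = 2.66e-04). Both calls were lost at a pseudocount of 5 CPM, and most values lie within a few reads of 0. The change from 2iL differed from that of WT by -1.09 ± 0.36 at day 3 and -1.30 ± 0.36 at day 5, and neither was called by edgeR (adjusted p = 0.186 and 0.129). Of 9 tested markers of fibroblasts, a mesenchymal cell type, 5 were higher and 1 lower in the depleted lines at day 3 (background 17.3%). The sum over this list was 59.9 to 110 CPM in WT and 128 to 218 CPM in KO2. KO3, at 85.6 to 90.3 CPM, lay inside the WT range. The part of these markers in the Cdh11 result was not tested.

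Cdh2 was higher in the depleted lines at day 5, with 2.28, 5.68, 5.57 and 9.74 CPM in KO2 and 11.6 and 7.25 CPM in KO3 against 1.75 to 2.62 CPM in WT. The difference was 1.43 ± 0.28 (adjusted p = 9.65e-05), and 5 of 6 depleted libraries lay above every WT library. The 2iL difference came from KO2 (3.21 to 5.44 CPM, against 0 to 2.15 CPM in WT), since KO3 overlapped WT at 0.67 to 2.09 CPM. It was 0.90 ± 0.30 (adjusted p = 0.0244) and was not called by edgeR (adjusted p = 0.108), nor without WT library 2, KO2 library 3 or KO3 library 3. At day 5 KO3 also held the most primitive endoderm markers, with summed levels of 735 to 851 CPM against 240 to 267 CPM in KO2 and 211 to 241 CPM in WT. Neuroectoderm markers summed to 165 to 178 CPM in WT, 173 to 258 CPM in KO2 and 293 to 312 CPM in KO3 at that time, and of 7 tested, 2 were higher and 2 lower in the depleted lines. Mesoderm markers summed to 10.5 to 15.7, 10.5 to 27.8 and 29.2 to 32.4 CPM, with 2 of 8 tested higher and 1 lower. Of all genes, 20.6% were called at day 5. The part of all these markers in the Cdh2 result was not tested.

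For the change from 2iL as a whole, 1 member differed between the genotypes at day 1, 4 at day 3 and 4 at day 5, where 9.15%, 14.8% and 17.9% of all genes were called. Beside Cldn4, Cdh22 and Cdh11, these were Cldn6, with a smaller rise in the depleted lines at day 3 (-0.74 ± 0.26, adjusted p = 0.0478) and day 5 (-0.88 ± 0.26, adjusted p = 0.0144), and Cdh1, with a larger one at day 5 (0.61 ± 0.12, adjusted p = 1.16e-04). Without the third 2iL libraries the Cldn6 values were -0.30 and -0.44 and were not called. The Cldn6 value at day 3 was lost under 20 alternatives, edgeR (adjusted p = 0.0789) among them. The Cdh1 value was 0.34 with the neighbours' median subtracted, under 1.5-fold, and it was lost without KO3 day 5 library 1, WT 2iL library 1 or WT 2iL library 2. It was also lost with quantile normalization and in KO3 alone. The value for Cdh22 at day 5 (-0.99 ± 0.37, adjusted p = 0.049) was lost under 21 alternatives, without the third 2iL libraries among them (-0.78, adjusted p = 0.176), and had the opposite sign in edgeR (1.20, adjusted p = 0.359).

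Each depleted line was also set against WT alone, with the same WT libraries in both comparisons. KO2 differed in 4, 3, 4 and 5 of the 10 genes in 2iL and at days 1, 3 and 5 (17.8%, 13.5%, 14.3% and 16.8% of all genes). KO3 differed in 1, 2, 5 and 4 (13.2%, 15.4%, 19% and 25.5%). KO3 against KO2 gave 6, 3, 3 and 3 members, beside 7.24%, 15.0%, 7.69% and 14.1% of all genes, and in 2iL the 6 were Cdh1, Epcam, Cldn6, Cldn7 and Esrp1, higher in KO3, and Cdh2, lower. None of these 6 calls in 2iL was made with only the compared groups fitted. Cldn4 was not called there (0.93 ± 0.31, adjusted p = 0.0555), and was called without the third 2iL libraries (adjusted p = 9.52e-04).

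Cdh3 differed from WT in opposite directions in the 2 depleted lines at day 1. At day 1 KO2 read 5.02, 7.13, 8.62 and 4.91 CPM, below all WT libraries (-1.42 ± 0.30, adjusted p = 5.48e-04), and KO3 read 50.1, 48.8, 26.8 and 32.5 CPM, above them all (1.01 ± 0.30, adjusted p = 0.012). At day 3 KO3 held 40.9 and 29.9 CPM against 7.59 to 12.8 CPM in WT (1.66 ± 0.37, adjusted p = 8.18e-04). KO2, at 2.27 to 14.4 CPM, spanned the WT range and was not called (-0.67 ± 0.30, adjusted p = 0.114). KO3 exceeded KO2 by 2.43 ± 0.30 at day 1 and 2.33 ± 0.37 at day 3 (adjusted p = 9.61e-08 and 4.75e-05). By day 5 both lines were below WT, with 5.12 to 11.8 CPM in KO2 and 18.6 and 18.8 CPM in KO3 (-1.04 ± 0.28, adjusted p = 0.00421), although KO3 alone was not called (-0.52 ± 0.37, adjusted p = 0.304). The mean over the depleted lines therefore hides the difference in Cdh3 between these lines at days 1 and 3.

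Epcam differed mainly in KO2, by -0.89 ± 0.25 in 2iL, -0.93 ± 0.22 at day 1, -0.83 ± 0.22 at day 3 and -1.13 ± 0.22 at day 5, and its neighbours on chromosome 17 differed with it. Of the 34 nearest genes with at least 10 CPM (25 before it and the 9 that follow up to the chromosome's end), 34 were lower in KO2 than in WT at day 3, with a median of -0.81, while the median over 414 genes of the chromosome was -0.04. At day 1 the neighbours' median was -0.89 and at day 5 -0.88. In KO3 the same genes had a median of -0.11 at day 3. With the neighbours' median subtracted, Epcam in KO2 differed from WT by -0.05 at day 1, -0.02 at day 3 and -0.25 at day 5, none called (adjusted p = 0.921, 0.958 and 0.438). The day 5 call over both lines was then lost (-0.23, adjusted p = 0.4), as it was for KO3 taken alone (-0.33 ± 0.26). KO3 exceeded KO2 in Epcam by 0.85 ± 0.26 at day 3 and 0.81 ± 0.26 at day 5, calls that were lost without KO2 library 2, 3 or 4 or either KO3 library of that day.

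Cdh1, Cdh3 and Cdh11 lie on chromosome 8, where genes were higher in KO3 than in WT. The median over 488 genes of at least 10 CPM was 0.25 in 2iL, 0.31 at day 1, 0.46 at day 3 and 0.45 at day 5, and the 50 neighbours of Cdh1 had medians of 0.27, 0.29, 0.43 and 0.60. Cdh1 itself differed in KO3 by 0.28, 0.37, 0.61 and 0.80, the last 2 called (adjusted p = 1.52e-05 and 8.02e-08). Less the neighbours' median, it differed by 0.19 at day 3 and 0.20 at day 5 (adjusted p = 0.217 and 0.136). KO2, whose chromosome 8 median was 0.12 at day 3, held Cdh1 at 0.26 ± 0.09 above WT, under 1.5-fold. For Cdh3 the same subtraction left a KO3 difference of 0.72 at day 1, which was no longer called (adjusted p = 0.0832), 1.23 at day 3 (adjusted p = 0.0141) and -1.12 at day 5 (adjusted p = 0.0191). For Cdh11 at day 3 it gave -1.56 (adjusted p = 2.58e-04). The neighbours of Cdh22 and Cldn4 had medians between -0.26 and 0.04 in either line at days 1 to 5. At day 3 Cdh22 itself differed by -2.70 in KO2 and -2.44 in KO3, and Cldn4 by 1.72 and 2.06. The part of position in these differences was not tested.

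**Figure D4:**
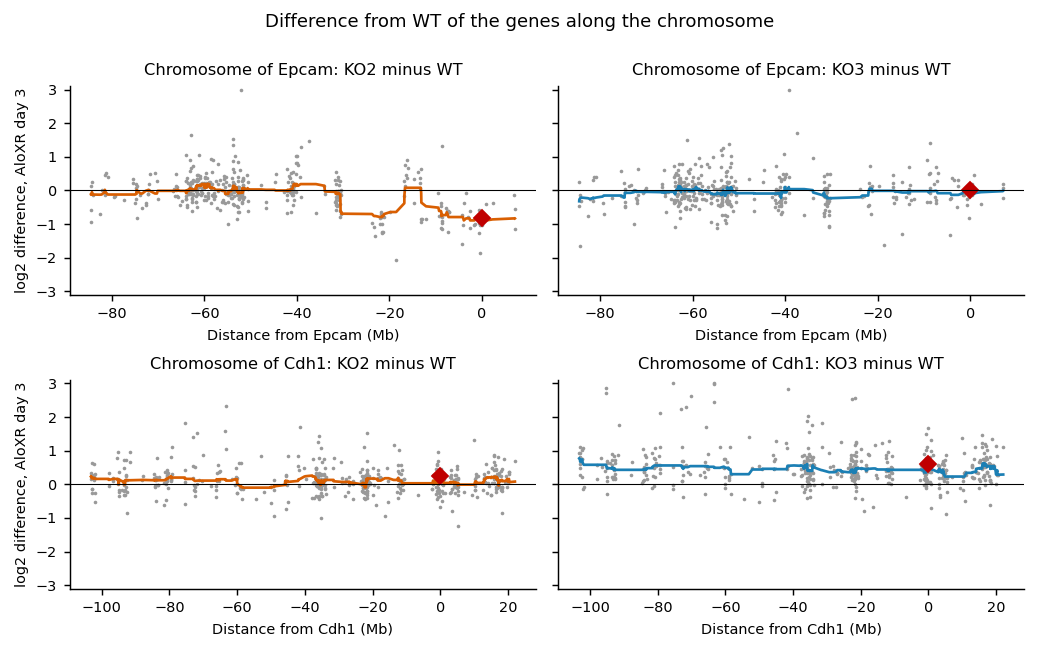
Log2 difference from WT at AloXR day 3 (vertical axis, values beyond 3 drawn at the edge) of genes with at least 10 CPM against their distance in Mb (horizontal axis) from Epcam (upper panels) and Cdh1 (lower panels), for KO2 and KO3, with a running median over 25 genes and a diamond at Epcam or Cdh1. In KO2, genes within 10 Mb before Epcam have a median of -0.77, those 10 to 20 Mb before it 0.22 and those 20 to 30 Mb before it -0.98, and in KO3 the genes around Cdh1 lie above 0 along the chromosome.

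Across the 12 group means, Cldn6 and Esrp1 ran most alike among the members (Pearson's r = 0.98), followed by Epcam and Esrp1 (0.94) and by Cdh11 and Cdh22 (0.91). Spearman's rho for these pairs was 0.90, 0.94 and 0.72. Cdh11 and Cdh22 averaged 0.722 CPM or less in every group of 2iL and day 1. Cldn4 had r between -0.22 and 0.22 with 8 of the others and 0.52 with Cdh1. These values describe 12 points that share lines, media and libraries. Among 10249 genes with at least 10 CPM in some group, those most like Esrp1 were Sertad4, Zfp608 and Fubp1 (0.990, 0.986 and 0.986), and those most like Cldn6 were Zfp608, Myl9 and Galnt3 (0.990, 0.985 and 0.985). Cldn7 ran closest to Clip1, Smo and Zmynd11 (0.984, 0.976 and 0.969), and Epcam to Arrdc1, Ptpa and Hook1 (0.957, 0.955 and 0.951). For Cdh1 the nearest were Zc3h18, Cbfb and Map1s (0.959, 0.954 and 0.944), and all 3 lie on chromosome 8 as Cdh1 does. For Cdh11 they were Sox9, Snx9 and Auts2 (0.987, 0.948 and 0.941), for Cdh22 Prkra, Maged2 and Iqgap2 (0.952, 0.951 and 0.936), and for Cdh3 Tead3, 6720427I07Rik and Arrdc1 (0.958, 0.948 and 0.914). Cldn4 had the weakest best matches, Atp9b, Afap1 and Ahnak2 (0.868, 0.859 and 0.857), and Cdh2 had Fam53c, Traf3 and Hars (0.902, 0.898 and 0.893).

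The other junction genes were read from 8 lists. Of 14 tested tight junction proteins, 10 rose and 2 fell in WT from 2iL to day 5 (39.4% of all genes were called). Cgnl1, a paralogue of cingulin that links junctions to the cytoskeleton, rose from a mean of 1.21 to 26.9 CPM (3.67 ± 0.20 on the log2 scale), and Marveld3, a tight junction membrane protein, from 0.971 to 19.3 CPM (3.42 ± 0.26). The 2 that fell were Jam2, a junctional adhesion molecule, from 267 to 0.0991 CPM (-7.92 ± 0.26), and Ildr1, a protein of tricellular junctions, from 87.2 to 9.64 CPM (-3.05 ± 0.19). Both were already lower in the depleted lines in 2iL, at means of 25.3 and 29.1 CPM for Jam2 and 26.4 and 44.3 CPM for Ildr1 in KO2 and KO3. Depleted against WT, the tight junction list held 1 gene higher and 1 lower at day 3 (background 17.3%). At day 5 the list held 2 higher and 3 lower (background 20.6%). Tjp3, a scaffold protein of the junction, then averaged 11.6 and 6.88 CPM against 35.7 CPM (-2.01 ± 0.32).

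Of 14 polarity genes, 6 were higher and none lower in WT at day 5, near the 39.4% of all genes called. Crb3, an apical determinant, rose from 19.1 to 106 CPM (2.5 ± 0.26), and Patj, which binds the Crumbs complex, from 4.99 to 29.9 CPM (2.40 ± 0.22). In the depleted lines at day 5, Crb3 averaged 50.9 and 34.4 CPM (-1.32 ± 0.23 against WT, adjusted p = 2.77e-05), one of 3 polarity genes lower and none higher, near the background of 20.6%. Cldn3, a claudin of tight epithelia, did the same: WT rose from 8.81 to 56.8 CPM (2.59 ± 0.29), and KO2 and KO3 held 17.3 and 10.5 CPM at day 5 (-2.03 ± 0.25, adjusted p = 3.55e-08). Of the 10 other claudins tested, 4 rose and 1 fell in WT at day 5 (background 39.4%). In the depleted lines 2 were lower and 1 higher (background 20.6%).

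Of 10 other cadherins tested, 6 rose and none fell in WT at day 5 (background 39.4%). Among them were Cdh10, a type II cadherin, from 0 to 8.29 CPM in the mean, and Cdh4 (R-cadherin), from 1.83 to 20.9 CPM (2.96 ± 0.23). At day 3 Cdh6 averaged 0.71 CPM in KO2 and 4.36 CPM in KO3, against 0.15 CPM in WT (1.37 ± 0.23), and Cdh4 averaged 19.2 and 26.2 CPM against 40.7 CPM (-0.82 ± 0.20). Of 14 catenins and adherens junction genes, 2 were higher and 1 lower in WT at day 5, where 39.4% of all genes were called: Vcl (vinculin) went from 54.1 to 165 CPM (1.59 ± 0.15), and Lima1, an actin-binding protein, from 357 to 55.7 CPM (-2.64 ± 0.15).

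Desmosome genes and epithelial regulators were called higher more often than lower in the depleted lines. Of 7 desmosome genes, 3 were higher and none lower at day 1, 4 and none at day 3, and 3 and 1 at day 5 (background 11.8%, 17.3% and 20.6%). Perp, a desmosomal membrane protein, averaged 8.77 CPM in WT at day 1, 50.2 CPM in KO2 and 59.1 CPM in KO3 (2.49 ± 0.15, adjusted p = 1.98e-17). Of 16 epithelial regulators and partners of Epcam, 8 were higher at day 1, 7 at day 3 and 3 at day 5, and none was lower at these times. Elf3, an epithelial transcription factor, averaged 1.51 CPM in WT at day 3, 5.7 CPM in KO2 and 8.97 CPM in KO3 (1.69 ± 0.25, adjusted p = 7.26e-07). The trophoblast and primitive endoderm sums given beside Cldn4 were also higher at days 1 and 3, and their part in these counts was not tested.

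Of 9 transcription factors of the epithelial to mesenchymal transition, 2 rose and 3 fell in WT at day 5 (background 39.4%). Zeb1, a repressor that binds the E-box printed above, fell from 17.8 to 0.708 CPM (-3.53 ± 0.32), and its relative Zeb2 rose from 0.295 to 5.93 CPM (2.43 ± 0.29). In the depleted lines at day 5, Zeb2 averaged 2.78 and 2.12 CPM (-1.03 ± 0.26, adjusted p = 0.00161), and Snai2 1.35 and 3.88 CPM against 0.904 CPM (0.80 ± 0.25, adjusted p = 0.0128).

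**Figure D5:**
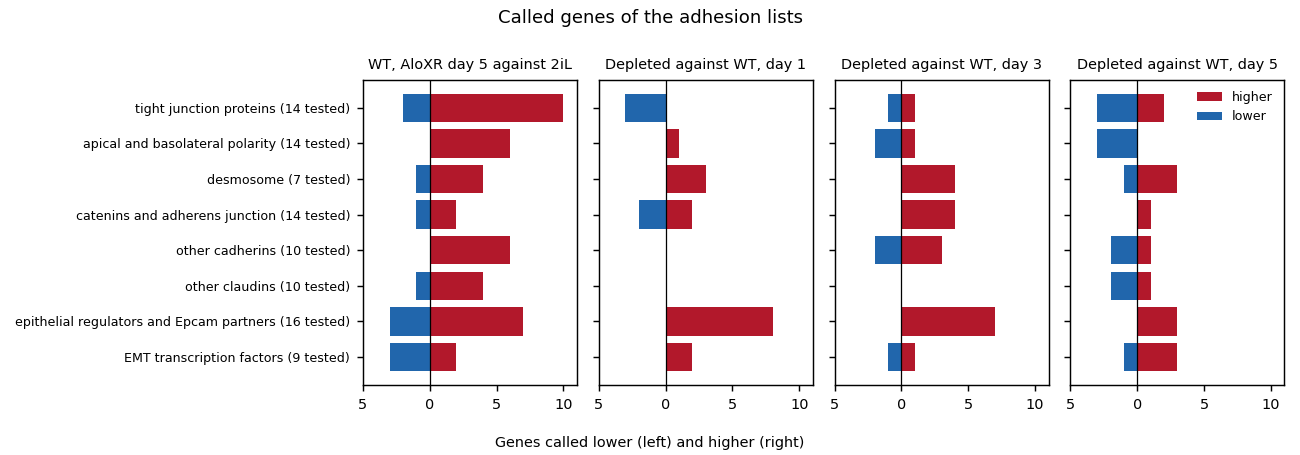
Number of called genes (horizontal axis, lower to the left and higher to the right) in 8 lists of adhesion genes (vertical axis, with the number tested), for WT at AloXR day 5 against 2iL and for both depleted lines against WT at days 1, 3 and 5. Tight junction proteins have 10 genes higher in the WT course, and epithelial regulators have 8, 7 and 3 genes higher and none lower in the depleted lines.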

How the data were processed

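QuantSeq 3′ libraries number 41, from E14 cells in 12 groups of line and time. Per the submitters' processing notes, STAR 2.7.6a, featureCounts 2.0.1 and GRCm38 were used. The authors deposited CPM, which sum to 1000000 per library without length scaling. Reads were recovered from the CPM steps, and 100% of 766190 values above 0 came out whole within 0.01 reads. Limits at 0 reads cover counting error only. Symbols matched 55141 of 55487 identifiers. The 16967 genes that reached 1 CPM in 3 or more libraries were analysed as log2(CPM + 1), a scale on which the changes of low genes are understated, with limma 3.58.1 (trend, robust) in R 4.3.3, as 12 group means, 29 residual degrees of freedom and Benjamini-Hochberg adjustment over all genes. The p-values measure only the spread between libraries of a line, which may be technical, and cannot tell Esrrb loss from other differences between lines.

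The members, lists and comparisons were chosen with earlier results of these data known, so no count over a list is independent support. Named genes were the members, Esrrb, up to 4 called genes per list with the largest change in a comparison, and the 3 genes most like each member. Alternatives were edgeR 4.0.16 on the recovered reads (calls in the closing section), other pseudocounts, filters and normalizations, omitted libraries and subtraction of the median of 50 neighbouring genes. The fit was tested on simulated data. Promoter windows are RefSeq's (GRCm38.p6) and gene positions GENCODE's of GRCm38.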

Additional observations from a re-analysis of the deposited data

Results flagged for a closer look

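Among 70 groups of 4 libraries, 8 held a library far from the other 3 of its group. In 4 of the 8 a single read stands against 3 values of 0, which meets the criterion by construction, and the other 4 are near the rate of about 1 in 20 that chance gives. These were the Cdh1 value of 663.85 CPM in KO2 at day 1 (lowest), the Cldn4 value of 98.81 CPM in KO3 at day 1 (lowest), the Cdh3 value of 38.83 CPM and the Cdh2 value of 2.62 CPM in WT at day 5 (highest), and 4 groups with a single read at day 1: Cdh11 at 0.18 CPM in WT, 0.23 CPM in KO2 and 0.22 CPM in KO3, and Cdh22 at 0.21 CPM in KO3.

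The change from 2iL differed between the depleted lines and WT for Cldn4 at day 1 (1.44) and day 3 (2.49), for Cdh11 at day 3 (-1.09) and day 5 (-1.30), for Cdh22 at day 3 (-2.01) and day 5 (-0.99), for Cldn6 at day 3 (-0.74) and day 5 (-0.88), and for Cdh1 at day 5 (0.61), all on the log2(CPM + 1) scale.

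KO3 differed from KO2 in 2iL in Cdh1 (0.67), Cdh2 (-1.21), Epcam (1.42), Cldn6 (0.74), Cldn7 (1.5) and Esrp1 (0.90). At day 1 the lines differed in Cdh3 (2.43), Epcam (0.88) and Cldn7 (0.76), at day 3 in Cdh3 (2.33), Epcam (0.85) and Esrp1 (0.63), and at day 5 in Cdh3 (1.04), Epcam (0.81) and Esrp1 (0.69). The Esrp1 call at day 3 was lost under 9 alternatives. The calls of Cldn7 at day 1 and Cdh3 at day 5 were each lost under 7, most of them omissions of 1 library. For Epcam the neighbouring genes on chromosome 17 differed by 0.57, 0.84, 0.80 and 0.71 at the 4 times.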

How the results depend on the processing

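No paired analysis was possible because the labels give no replicate numbers that link libraries across groups. Over all comparisons, 11 member calls were made between the depleted lines and WT, and 7 at a pseudocount of 5 CPM. The 9 differing changes from 2iL became 5 at that pseudocount, 4 in edgeR and 5 with only the compared groups fitted. With 1 library left out they ranged from 5 (without WT 2iL library 1) to 9. The 15 calls between KO3 and KO2 became 8 with only the compared groups fitted and 9 with the neighbours' median subtracted, where 8 were kept and Cldn4 in 2iL was added (0.97, adjusted p = 0.0498). Signs were opposite for Cdh22 in the differing change at day 5 by edgeR (1.20), for Cdh2 at day 1 against 2iL in KO3 alone (0.84) and for Cdh3 at day 1 against WT in KO3 alone (1.01). Of 882 tests of called results with 1 library left out, 794 kept the call, 88 lost it and none changed sign. The KO3 groups of 2 libraries and the genes of a few reads have limited precision.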
